A study of Mus musculus with 21 samples.

Results

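The hypothalamus was compared between mice in which Ins2, a gene that encodes insulin, was overexpressed in the choroid plexus and control mice, over all genes of the deposited hypothalamus table. The libraries were chosen by tissue, as labelled, and make up 10 of the 21 of the series. Of these, 5 came from the Ins2 group, here Ins2 replicates 1 to 5, and 5 from the control group, here control replicates 1, 2, 3, 4 and 6. All mice were wild type on the C57BL/6J background. The controls are listed as untreated, while their columns carry a GFP prefix, so what the controls received is not settled here. The labels do not say how Ins2 was introduced, for how long, in which cells it was driven, or the mice's age. The labels do not state that each replicate was its own mouse, so every p-value here refers to spread among libraries, which may be technical.

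The choroid plexus secretes cerebrospinal fluid into the brain ventricles, and the hypothalamus borders the third ventricle, where tanycytes and ependymal cells form its lining. In the arcuate nucleus of the hypothalamus, Agrp and Npy neurons promote feeding and Pomc neurons restrain it, and both kinds carry insulin receptors. Insulin acts through its receptor, receptor substrates such as Irs2 and the kinase AKT, which holds FOXO transcription factors out of the nucleus. In bulk tissue, fewer cells of a type and less RNA per cell cannot be told apart.

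Recovered reads per library ran from 27.4 to 62.1 M (M, 1e+06), with a mean of 39.5 ± 12.8 M in the Ins2 group and 33.8 ± 8.26 M in the control group (SD, n = 5 each; exact two-sided permutation p = 0.476). Values are normalised read counts, reads divided by a size factor per library. Markers of hypothalamus were present in every library: Nkx2-1, a transcription factor of the ventral hypothalamus, had 1957 to 2379 in controls and 1873 to 2224 in Ins2 libraries. Several libraries stood apart. Control 4 had the highest summed level of ribosomal protein genes, 374726, Ins2 1 and Ins2 5 the highest of meningeal genes, control 2 the lowest Vip and control 3 the highest Slc6a3.

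The overexpressed gene itself was almost unread here. Ins2 had no read in 9 libraries and 5 reads in Ins2 4, and Ins1, the other insulin gene, had none in any. For a library without a read, up to 3 reads remain possible from counting error alone, which at these depths is 0.0483 to 0.110 per M. The level of Ins2 gave no check of the labels in this tissue. Ttr, the most abundant choroid plexus transcript, had 0 to 35.8 in controls and 7.21 to 26.4 in Ins2 libraries.

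Across the hypothalamus no gene passed the test. Over 16363 genes whose mean reached 10, 0 were called higher (0%) and 0 lower (0%) in Ins2 hypothalamus (limma, Benjamini-Hochberg adjusted p under 0.05), and the smallest adjusted p was 0.309. At an unadjusted p under 0.05 there were 957 genes on the higher side (5.85%) and 667 on the lower side (4.08%). Every Ins2 library lay above every control library for 126 genes (0.77%) and below for 119 (0.727%). The median log2 fold change was 0.00, 50.3% of genes lay above 0 and 49.7% below, and the standard error of a gene's fold change had a median of 0.08 (log2). Differences of single genes were small: 125 genes had an absolute log2 fold change over 1.

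**Figure D1:**
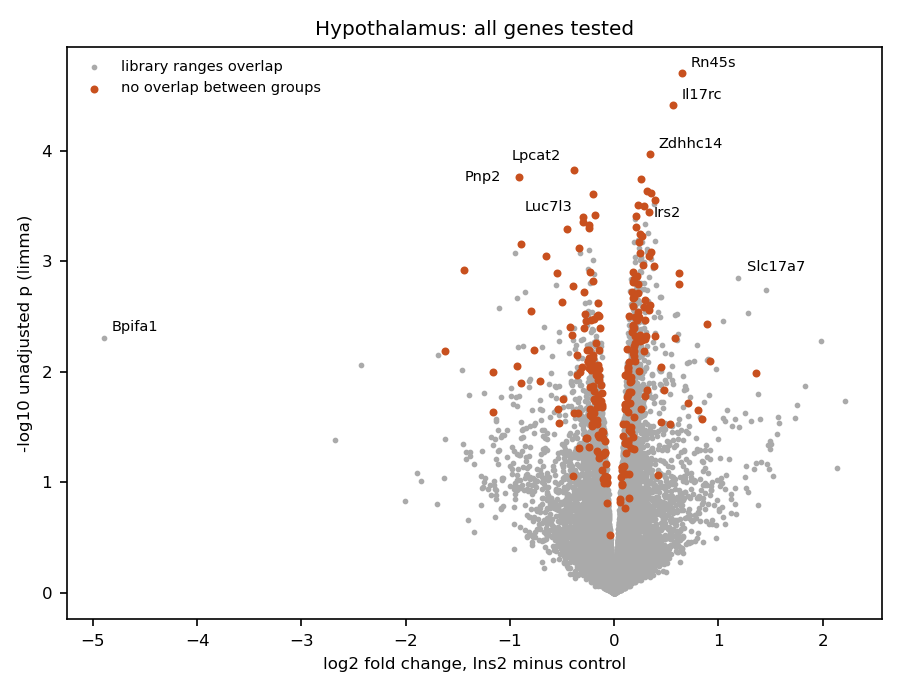
Each point is 1 of the 16363 genes tested, with the log2 fold change (Ins2 minus control) on the horizontal axis and -log10 of the unadjusted limma p on the vertical axis; orange points are the 245 genes whose library ranges do not overlap between the groups. Points spread to both sides of 0, and no gene passed the adjusted threshold.

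The count models differed in which genes they called. On whole reads recovered from the values, edgeR called 0 higher (0%) and 0 lower (0%), with 933 and 697 genes at an unadjusted p under 0.05 and a smallest adjusted p of 0.193. DESeq2 called 31 higher (0.526%) and 10 lower (0.17%) when its automatic filter on low means was aimed at the 0.05 threshold, which left 5894 genes with an adjusted p. With the filter target at its default it called 15 higher (0.242%) and 6 lower (0.0966%), and without the filter, over 16362 genes, 3 higher (0.0183%) and 2 lower (0.0122%). Kirrel3 was the 1 gene shared by the filtered 41 and the unfiltered 5. The calls of this tool thus moved with its filter. A DESeq2 adjusted p given below is from the filter aimed at 0.05, and that gene was not called without the filter, unless stated. Of the genes given such a value, Irs2, Pcdhgc3, Luc7l3 and Clk1 were also called with the filter target at its default, while Rn45s and Kcnc1 were not.

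The gene with the smallest p was Rn45s, the precursor of ribosomal RNA, which poly(A) selection is meant to remove. Its normalised counts were 65517, 55869, 72357, 76254 and 69293 in control replicates 1, 2, 3, 4 and 6. In Ins2 replicates 1 to 5 they were 150583, 128895, 88164, 89055 and 88136. All Ins2 libraries lay above all controls, and Ins2 1 and Ins2 2 stood well above the other Ins2 libraries. The log2 fold change was 0.65 ± 0.12 (SE; limma adjusted p = 0.309; DESeq2 adjusted p = 0.0492). This RNA is made from many gene copies, so its assignment is uncertain.

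Il17rc, a subunit of the interleukin 17 receptor (chromosome 6, 113471427 to 113483140, GRCm38), followed. Controls had 203, 254, 272, 235 and 248 and Ins2 libraries 348, 379, 329, 359.9 and 374, with no overlap between the groups. The log2 fold change was 0.57 ± 0.11 (limma adjusted p = 0.309), and DESeq2 without its filter gave an adjusted p of 0.00873. Zdhhc14, a palmitoyltransferase (chromosome 17, 5492557 to 5753811), had 837, 1026, 989, 845 and 1017 in controls and 1143, 1214, 1174, 1178 and 1240.5 in Ins2 libraries, a log2 fold change of 0.34 ± 0.07. The groups did not overlap there either.

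The other genes with the smallest p on the higher side differed by 0.2 to 0.4 on the log2 scale. Kirrel3, a synaptic adhesion molecule, had 1627, 1742, 1688, 1623 and 1799 in controls and 1873, 2005, 2162, 1971 and 2107 in Ins2 libraries (log2 fold change 0.25 ± 0.06). Pou3f3, a neural transcription factor, had 1934 to 2539 in controls and 2624 to 2982 in Ins2 libraries (0.32 ± 0.07). Both groups of values were separate for these 2 genes. Lrig1, which restrains growth factor receptors (0.23 ± 0.05), Rell2 (0.29 ± 0.07) and Flywch1 (0.21 ± 0.05) also showed no overlap. Scrt1, a neuronal transcriptional repressor, did overlap, with 2739 to 4219.7 in controls and 3986 to 4882 in Ins2 libraries (0.38 ± 0.09). Of Rell2's exon bases 44% are shared with a gene on the opposite strand, and the strand setting of the counting is not given in the sources used here, so its value is uncertain.

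On the lower side, Lpcat2, an enzyme of phospholipid remodelling (chromosome 8, 92855339 to 92919279), had 575, 650.1, 571, 628 and 628 in controls and 473, 432, 521, 464 and 448 in Ins2 libraries. The groups were separate, with a log2 fold change of -0.38 ± 0.08 (limma adjusted p = 0.309). Pnp2, a purine nucleoside phosphorylase, had 125, 132, 115, 128 and 109 in controls and 49.6, 70.7, 84.6, 47.1 and 76.2 in Ins2 libraries (-0.92 ± 0.20), again with no overlap. Pnp2 and Srp54a (-0.20 ± 0.05) have near-identical copies in the mouse genome and are uncertain for that reason. DESeq2 without its filter gave adjusted p of 0.0409 for Lpcat2 and 0.0417 for Pnp2. Oprk1, the kappa opioid receptor, had 1028, 1109.7, 990.0, 1161 and 1052 in controls and 828, 809, 921, 852 and 946 in Ins2 libraries (-0.29 ± 0.07). All Ins2 values of Oprk1 lay below all controls. Ints2 (-0.30 ± 0.07), a subunit of the Integrator complex, Zmym6 (-0.24 ± 0.06), Gin1 (-0.46 ± 0.11), BC055324 (-0.90 ± 0.22) and Gm15246 (-0.34 ± 0.09) likewise had no overlap.

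**Figure D2:**
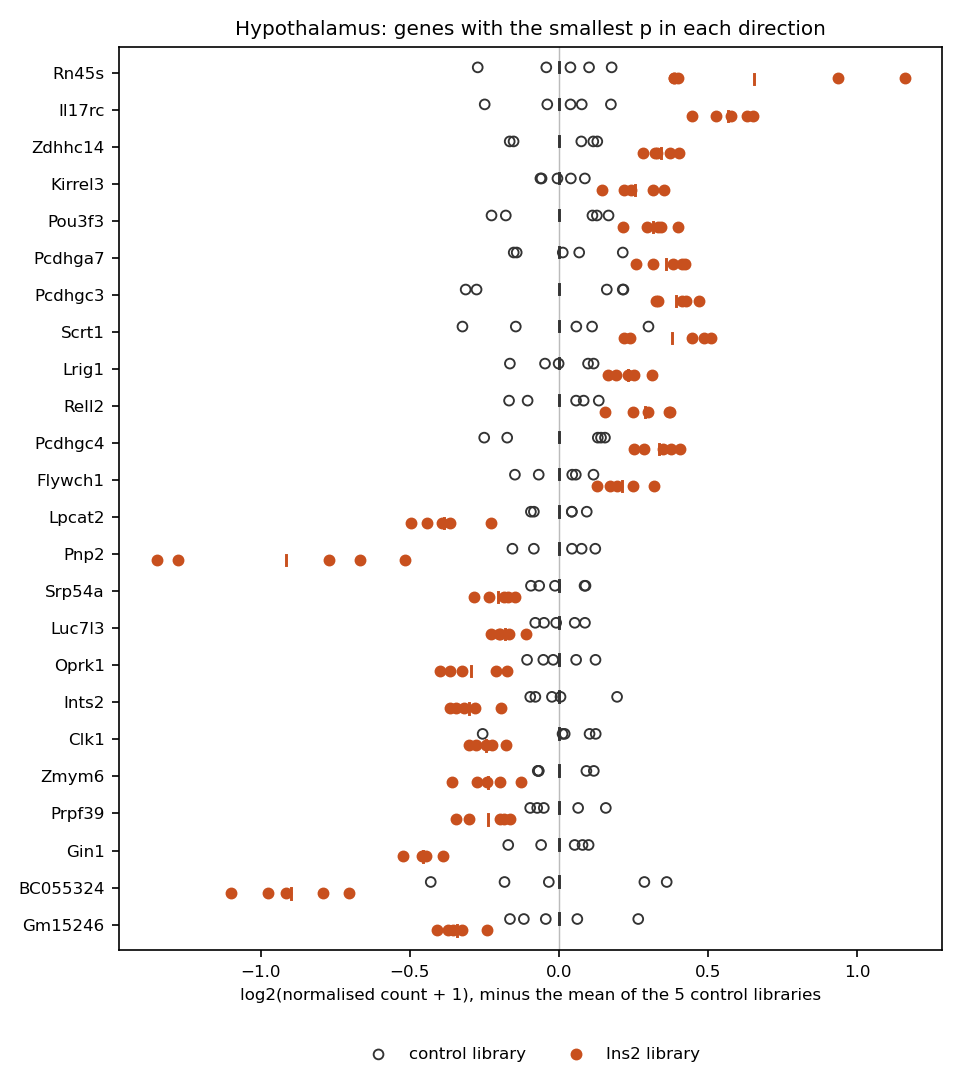
Each row is 1 of the 24 genes with the smallest p, 12 in each direction; points are libraries (open, control; filled, Ins2), bars are group means, and the horizontal axis is log2(normalised count + 1) minus the control mean. The groups separate in all but Scrt1 and Clk1, with differences mostly within 0.5 of 0.

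Genes of insulin signalling were next examined, since Ins2 encodes insulin. None of 38 tested was called by limma, 24 of 38 lay above 0 and the median was 0.02, beside 0.00 over all genes. Insr, the insulin receptor, had 2434, 2130.5, 1983, 1961 and 2043 in controls and 1981, 1927, 1937, 2006 and 2085 in Ins2 libraries. The ranges overlapped, with a log2 fold change of -0.08 ± 0.06 (exact permutation p = 0.198). Igf1r, the related receptor for insulin-like growth factor 1, gave 0.05 ± 0.05 (exact permutation p = 0.294).

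Irs2, the insulin receptor substrate, had the smallest p of the list. Its normalised counts were 3061, 3929, 3596, 3134 and 4191 in controls and 4112, 4474, 4414, 4204 and 4662 in Ins2 libraries. Only control 6 reached the Ins2 range. The log2 fold change was 0.30 ± 0.07 (SE; limma adjusted p = 0.309; DESeq2 adjusted p = 0.0396; exact permutation p = 0.0159), and it ran from 0.24 to 0.36 when 1 library was left out. With each library's thalamic score, the mean log2 level of 8 defining thalamic genes, as a covariate it was 0.20. Without control 6, limma called 16 genes higher (0.0978%), Irs2 among them, and 2 lower (0.0122%). Gsk3a, a kinase that AKT inhibits, had 4524 to 5106 in controls and 4994 to 5592 in Ins2 libraries (0.15 ± 0.05).

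Targets of FOXO, which insulin represses, showed no common direction: 13 of 22 lay above 0 and 9 below, with a median of 0.00. Irs2 is also in this list and had its highest log2 fold change, 0.30, while the lowest was -0.26. Pdk4, which restrains pyruvate oxidation, had 350.4, 314, 328, 301 and 372 in controls and 324, 397, 398, 448 and 477 in Ins2 libraries (0.29 ± 0.11). Slc2a4, the insulin-regulated glucose transporter, had 171, 107, 144, 145 and 162 in controls and 166, 245, 178, 189.7 and 212 in Ins2 libraries (0.44 ± 0.16; exact permutation p = 0.0159). Slc2a4 belongs not to the FOXO list but to glycolysis and glucose uptake genes, with 16 of 24 above 0 (median 0.02). The ranges overlapped for both Pdk4 and Slc2a4, and neither gene was called.

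Most arcuate feeding genes had lower means in the Ins2 group, but their medians depended on the setting. Of the list, 17 of 22 lay below 0 and the median was -0.11, -0.13 to -0.07 with 1 library left out. It was -0.01 with the thalamic score as a covariate and -0.05 without controls 1 and 4. Agrp, which drives feeding, had 330.3, 222, 379, 482 and 353 in controls and 322, 281, 250, 324 and 262 in Ins2 libraries. Control 4 was the highest and control 2 the lowest of all 10, so the groups overlapped (-0.26 ± 0.15; exact permutation p = 0.23). Npy, its partner in the same neurons, had 948, 687, 981, 1113 and 749.8 in controls and 838, 917, 626, 838 and 788 in Ins2 libraries (-0.15 ± 0.12; exact permutation p = 0.381). Pomc, the precursor of the satiety peptide alpha-MSH, had 3014, 3025, 2904, 3262 and 2332 in controls and 2654, 2548, 2528, 3077 and 2322 in Ins2 libraries (-0.14 ± 0.08; exact permutation p = 0.214). The Ins2 values lay within or just below the control values for both. Cartpt, a satiety peptide, gave -0.08 ± 0.08, Sst, somatostatin, -0.09 ± 0.06, and Ghrh, which releases growth hormone, -0.13 ± 0.16. Kiss1, which drives the reproductive axis, had 48.5, 61.6, 51.9, 65.97 and 36.3 in controls and 31.6, 53.5, 30.5, 19.5 and 37.1 in Ins2 libraries (-0.64 ± 0.29; exact permutation p = 0.0556). Ghsr had 376, 261, 321, 230 and 284 in controls and 421, 327, 325, 379 and 322 in Ins2 libraries. Its log2 fold change was the highest of the list (0.28 ± 0.13, exact permutation p = 0.0873). At an unadjusted limma p under 0.05 the list had 1 gene higher and 1 lower, beside 5.85% and 4.08% of all genes. Lepr, the leptin receptor, gave 0.10 ± 0.20.

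Hormones of the paraventricular and supraoptic nuclei did not separate the groups. Avp, vasopressin, had 8113 to 14893 in controls and 9298 to 12630.2 in Ins2 libraries (-0.00 ± 0.12), and Oxt, oxytocin, gave -0.19 ± 0.15. Trh, which starts the thyroid axis, had 2690.2, 3192, 3326, 3093 and 3683 in controls and 2545, 2648, 2619, 3365 and 2868 in Ins2 libraries (-0.19 ± 0.08; exact permutation p = 0.111). Crh, which starts the stress axis, ranged more widely in the Ins2 group, 95.4 to 364 against 144 to 194. Hcrt, orexin, a lateral hypothalamic peptide of arousal and feeding, had 9111, 8897, 7633, 9759.8 and 9545 in controls and 11334, 10926, 9579, 8593 and 10573 in Ins2 libraries. Only Ins2 3 and Ins2 4 lay within the control range (0.18 ± 0.07; exact permutation p = 0.0952). Pmch, melanin-concentrating hormone, which overlaps a gene on the opposite strand and is uncertain for that reason, gave -0.10 ± 0.09, and Gal, galanin, -0.12 ± 0.09.

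**Figure D3:**
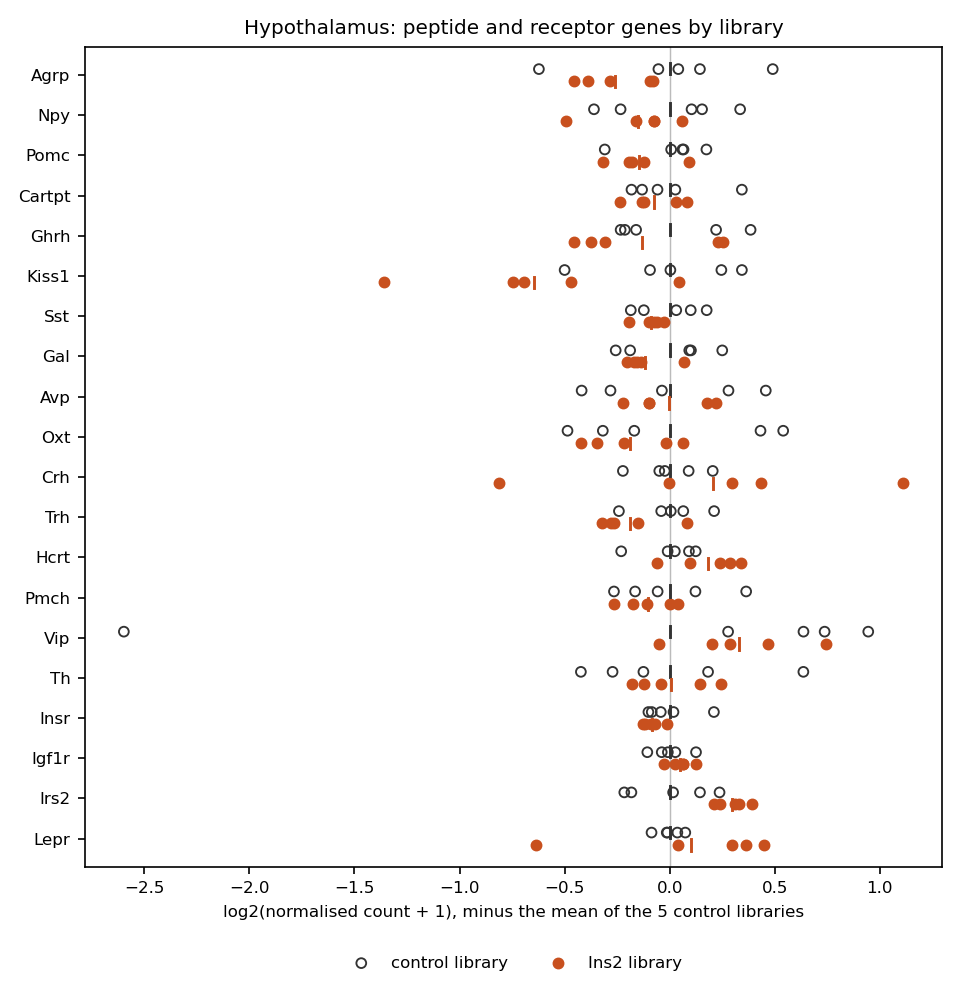
Rows are peptide, receptor and enzyme genes of the hypothalamus; points are libraries (open, control; filled, Ins2), bars are group means, and the horizontal axis is log2(normalised count + 1) minus the control mean. The groups overlap in every row, and control 2 stands alone at low Vip.

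Pan-neuronal genes were slightly higher on balance: 21 of 28 lay above 0, with a median of 0.05 and no gene called. The median was 0.01 with the thalamic score as a covariate, 0.03 without control 1 and 0.03 without control 4. Rbfox3, the nuclear marker NeuN, had 4769.8, 4867, 5266, 4528 and 5385 in controls and 5436, 5629.9, 5683, 5628 and 5526 in Ins2 libraries. The groups did not overlap (0.17 ± 0.05; limma adjusted p = 0.317). Snap25, a synaptic fusion protein, gave -0.03 ± 0.04, so not all neuronal markers pointed one way. Of sodium and calcium channel genes 23 of 30 lay above 0 (median 0.08), with 10 higher and 3 lower at an unadjusted p under 0.05, beside 5.85% and 4.08% of all genes. That median was 0.04 without control 4 and 0.02 with the thalamic covariate. Of potassium channel genes 25 of 35 lay above 0 (median 0.05, and 0.02 with the thalamic covariate). Kcnc1, a channel of fast-spiking neurons, had 6676 to 9464 in controls and 8825 to 10144 in Ins2 libraries (0.26 ± 0.07; DESeq2 adjusted p = 0.0492). Kcnh2, a delayed rectifier, was separate between the groups, 3259 to 4342 against 4418 to 5021 (0.27 ± 0.07). Grin2b, a subunit of the NMDA glutamate receptor, was too, with 2539, 2882, 2583, 2758 and 2889 in controls and 2989.9, 3065, 3218, 3306 and 3240.2 in Ins2 libraries (0.21 ± 0.05). The voltage-gated channel Scn9a pointed the other way (-0.23 ± 0.06).

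Clustered protocadherins, adhesion molecules that give neurons a surface identity, lay above 0 in 18 of 19, with a median of 0.23. Pcdhgc3 had 1639.6, 2303, 2219, 1598 and 2306 in controls and 2490.2, 2665, 2641, 2748 and 2500.5 in Ins2 libraries. Controls 1 and 4 were the lowest, and all Ins2 libraries lay above all controls (0.39 ± 0.09; limma adjusted p = 0.309; DESeq2 adjusted p = 0.0325). Pcdhgc4 gave 0.33 ± 0.08 and Pcdhga7 0.36 ± 0.08. Members of the gamma cluster share constant exons, and Pcdhgc3 also overlaps a gene on the opposite strand, so reads cannot be divided between them with certainty and they are not independent. The summed level was 7306 in control 1 and 6725 in control 4, against 8705 to 9117 in the other controls and 9065 to 10143 in the Ins2 group. The median was 0.10 to 0.27 with 1 library left out, 0.09 without both control 1 and control 4, and 0.12 with the thalamic covariate. The lowest of these leave-one-out values was that without control 1.

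Genes of astrocytes and of mature oligodendrocytes had medians near 0. Astrocyte genes lay above 0 in 14 of 24 (median 0.02), and Gfap, the astrocyte filament, gave -0.07 ± 0.08. Oligodendrocyte and myelin genes lay above 0 in 12 of 24 (median 0.00), and Mbp, myelin basic protein, gave 0.01 ± 0.04. Genes of oligodendrocyte precursors lay above 0 in 11 of 14 (median 0.10, 0.07 without control 4 and 0.03 without controls 1 and 4). Olig2, a lineage transcription factor, had 1611, 1755, 1855, 1675 and 1952 in controls and 1983, 2147, 1990.1, 2098 and 2038 in Ins2 libraries, with no overlap (0.22 ± 0.06; limma adjusted p = 0.316). Microglial genes lay below 0 in 16 of 23 (median -0.05), but the median was 0.01 without control 4 and 0.00 with the thalamic covariate. Cd68, a lysosomal protein of phagocytes, had 239, 225, 217, 231 and 241 in controls and 215, 176, 180.1, 178 and 213 in Ins2 libraries, separate between the groups (-0.26 ± 0.12), while Csf1r, the receptor that maintains microglia, gave 0.09 ± 0.05.

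Genes of cells that line the ventricle had medians a little below 0, which moved with single libraries. Tanycyte genes lay below 0 in 17 of 23 (median -0.07), with 4 lower and 0 higher at an unadjusted p under 0.05, beside 4.08% and 5.85% of all genes. The median was -0.04 without control 2. Col25a1, a membrane collagen, had 3649 to 4069 in controls and 3087 to 3854 in Ins2 libraries (-0.17 ± 0.06). Of the defining markers of tanycytes, Rax, Col23a1, Crym and Gpr50 had lower means in the Ins2 group. The mean of Dio2 was higher, 441 against 381. Gpr50 had 813 to 1322 in controls and 851 to 1017 in Ins2 libraries, and it was called lower without control 6 (limma adjusted p = 0.0482). Ependymal and motile cilia genes lay below 0 in 21 of 28 (median -0.08), from -0.16 without control 6 to -0.04 without Ins2 4. Cfap44, a protein of the ciliary axoneme, had 424, 367, 362, 430.1 and 320.4 in controls and 312, 278, 309, 255 and 289.5 in Ins2 libraries, with no overlap (-0.39 ± 0.11). Foxj1, the regulator of motile cilia, did not share this direction (0.11 ± 0.12). Choroid plexus epithelial genes lay above 0 in 11 of 24 (median -0.07), and the median was 0.01 without control 2 and 0.02 without control 4. Their summed level was 13644 to 14972 in controls and 13992 to 17578 in Ins2 libraries, highest in Ins2 1. Within these sums Enpp2 had 6457 to 7621 in controls and 6711 to 7300 in Ins2 libraries. Of the defining markers of this epithelium, Ttr was at most 35.8, Folr1 at most 38.8 and Kcnj13 at most 40.1 in any library, while Kl ran from 289 to 422 and Clic6 from 842 to 1149.

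**Figure D4:**
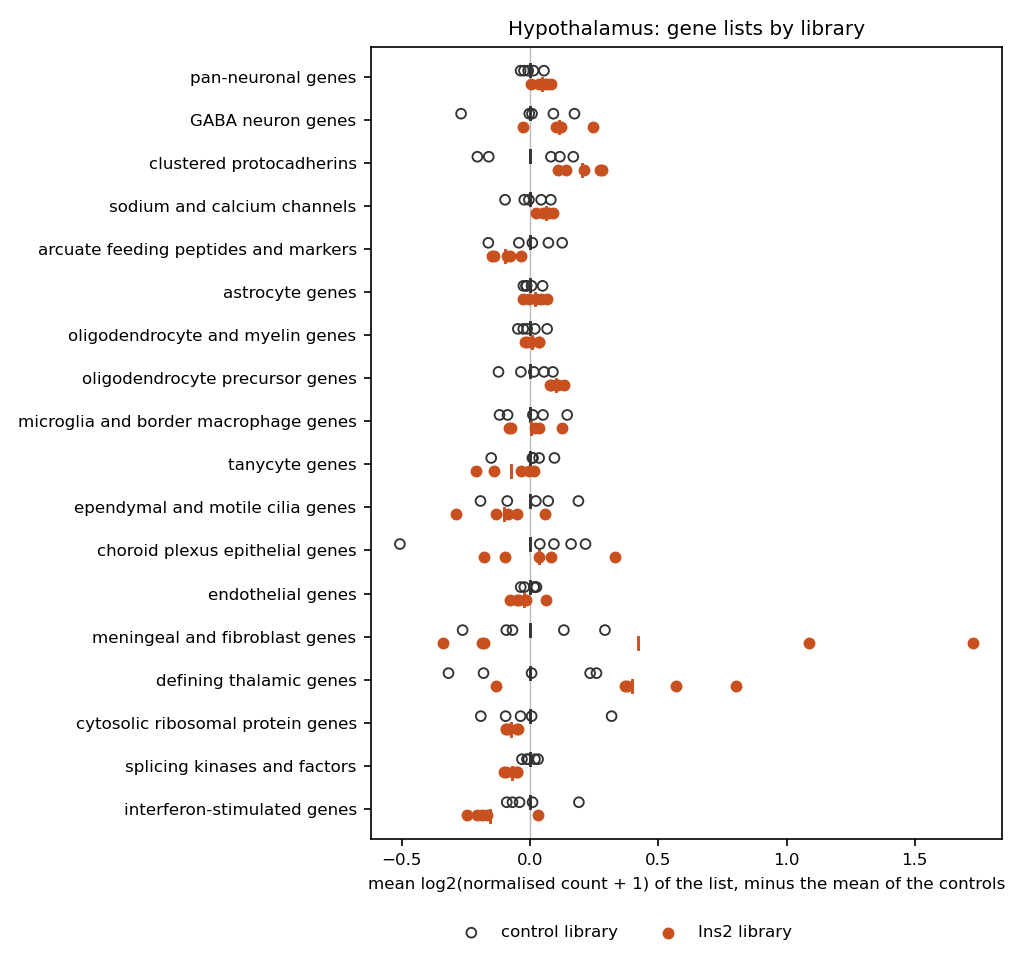
Rows are gene lists; points are libraries (open, control; filled, Ins2), bars are group means, and the horizontal axis is the mean log2(normalised count + 1) over the list minus its control mean. Most lists lie within 0.3 of 0 in every library, while Ins2 1 and Ins2 5 stand far to the right for meningeal genes.

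Marker genes of tissue next to the hypothalamus differed in level between libraries. Meningeal and fibroblast genes lay above 0 in 20 of 22, with a median of 0.44. Their summed level was 43274 in Ins2 1 and 25060.5 in Ins2 5, against 11421 to 16269 in the other 8 libraries. Without Ins2 1 and Ins2 5 the median was -0.16. Slc13a4, a sulfate transporter of meninges, had 79.04, 67.3, 97.9, 87.5 and 36.3 in controls and 568, 72.5, 65.9, 90.8 and 259.6 in Ins2 libraries, high in those 2 libraries alone. Igfbp2, which binds insulin-like growth factors, had 165, 214, 378, 178 and 175 in controls and 808, 259, 256, 276 and 399 in Ins2 libraries (0.76 ± 0.26). Its highest values were in the same 2 libraries. The log2 fold change of Igfbp2 kept its sign in all 29 alternative settings. Among these were the fit without Ins2 1 and Ins2 5 and the fit with a meningeal score as a covariate, a score that includes Igfbp2 itself. With 1 library left out it ran from 0.47 to 0.97. The part of meningeal RNA in its difference was not tested.

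Thalamic genes lay above 0 in 19 of 25 (median 0.13), and their summed level was 44271 to 47185 in controls and 46248 to 49939 in Ins2 libraries. It was above every control in 4 of the 5, but Ins2 4 (47204) and Ins2 5 (47323) only just passed control 2 (47185). Much of each sum came from 2 genes. Slc17a6 had 9589 to 11198 in controls and 10944 to 11826 in Ins2 libraries, and Calb2 9628 to 10968 and 9234 to 10969. The 8 defining genes among the markers of this region lay above 0 in 7 of 8 (median 0.31), and their summed level was 2413 to 3204 in controls and 2632 to 4092 in Ins2 libraries, above every control in 3 of the 5. Ins2 2 and Ins2 3 were the highest. Shox2, a thalamic transcription factor, had 14.2, 71.9, 44.1, 52.02 and 89.5 in controls and 20.03, 161, 223, 62.1 and 99.9 in Ins2 libraries. Slc17a7, the vesicular glutamate transporter of cortex and part of the thalamus, had 35.8, 26.2, 28.4, 40.6 and 49.3 in controls and 30.6, 117, 108, 105 and 87.6 in Ins2 libraries. All Ins2 libraries but Ins2 1 lay above the controls (1.19 ± 0.32; exact permutation p = 0.0317). Slc17a7 was not in the thalamic list but in those of glutamate neurons and of cerebral cortex and hippocampus. Of these, 7 of 10 (median 0.10) and 8 of 19 (median -0.01) lay above 0. With the thalamic score of each library as a covariate, limma called 3 of 16363 genes higher, Rn45s, Igfbp2 and Slc13a4, and 0 lower. The neuronal genes Kcnc1 and Syt2 had smaller log2 fold changes under that covariate, 0.15 and 0.14, against 0.26 ± 0.07 and 0.32 ± 0.08 without it. Others moved less: Kirrel3 from 0.25 to 0.18, Kcnh2 from 0.27 to 0.21 and Grin2b from 0.21 to 0.14. Rn45s rose from 0.65 to 0.87. The score itself leaned higher in the Ins2 group, so these shifts do not measure a thalamic part, which was not tested.

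Pituitary genes lay below 0 in 8 of 10 (median -0.48, -0.68 to -0.12 with 1 library left out), none of them called. Their summed levels overlapped, 13121 to 17072 in controls and 13546 to 15049 in Ins2 libraries. Most of each sum was Chgb, 9954 to 13132 in controls and 10888 to 12172 in Ins2 libraries. Pomc, named above as an arcuate gene, added 2332 to 3262 and 2322 to 3077, so the sums say little of the other members. Cga, the alpha subunit of pituitary hormones, had 6.71, 279, 238, 294 and 473 in controls and 318, 0, 5.91, 10.3 and 272 in Ins2 libraries. Cga was near 0 in control 1 and in Ins2 2, 3 and 4. The other defining markers of this gland did not share its direction. Gh, growth hormone, had the highest log2 fold change of the list (2.14 ± 1.13). Its values were 0, 0, 1.96, 29.2 and 0 in controls and 40.1, 0, 19.7, 41.4 and 3.09 in Ins2 libraries. Prl, prolactin, had 0 to 51.9 in controls and 0 to 50.6 in Ins2 libraries, and Pou1f1 0 to 11.2 and 0 to 9.78. Bpifa1, a secreted airway protein chosen after its values were seen, had 0, 567, 172, 1172 and 50.6 in controls and 0, 0, 0, 0 and 252 in Ins2 libraries. Its log2 fold change was the lowest named (-4.90 ± 1.55), yet the groups overlapped (exact permutation p = 0.127). Vip, a peptide of the suprachiasmatic nucleus, had 768, 65.01, 665, 483 and 620.0 in controls and 487, 551, 458, 667 and 384 in Ins2 libraries, low in control 2 alone. Slc6a3, the dopamine transporter, had 342, 706, 2244, 302 and 217 in controls and 346, 346, 313, 367 and 245 in Ins2 libraries, high in control 3 alone. The red blood cell genes Hba-a1 and Hbb-bs were at 0 in every library.

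**Figure D5:**
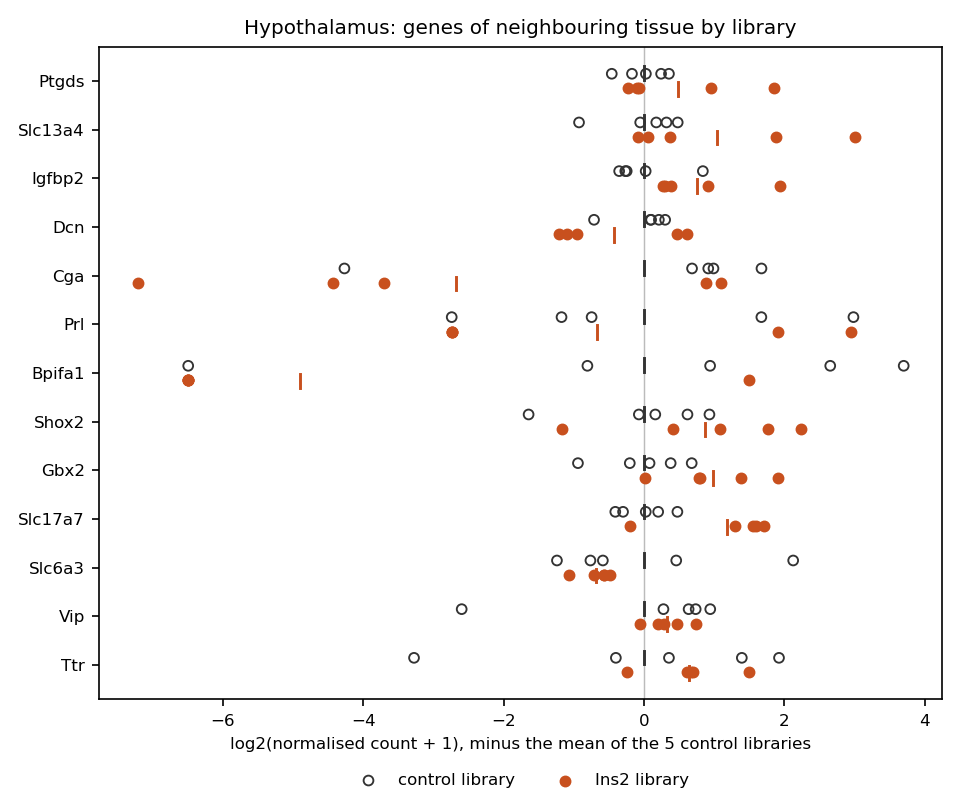
Rows are genes of meninges, pituitary, thalamus, midbrain, suprachiasmatic nucleus and choroid plexus, and Bpifa1; points are libraries (open, control; filled, Ins2), bars are group means, and the horizontal axis is log2(normalised count + 1) minus the control mean. Slc6a3 is high in control 3, Vip is low in control 2, and Ptgds and Slc13a4 are high in Ins2 1 and Ins2 5.

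Among cellular pathways, splicing genes leaned to the lower side. Of splicing kinases and factors 24 of 27 lay below 0 (median -0.06), 8 of them with an unadjusted p under 0.05, beside 4.08% of all genes. The median was -0.04 with the thalamic covariate. Their summed level was 190574 to 197366 in controls and 180013 to 189159 in Ins2 libraries, with no overlap. Luc7l3, a splicing factor, had 8138, 7425, 7578, 8334 and 7795 in controls and 6979, 6834, 6696, 6820.4 and 7260.4 in Ins2 libraries (-0.18 ± 0.04; DESeq2 adjusted p = 0.0325). Clk1, a kinase of splicing factors, had 5641, 5249, 5222, 5560.5 and 4338 in controls and 4369, 4274, 4431, 4204 and 4585 in Ins2 libraries, where control 6 lay among the Ins2 values (-0.25 ± 0.06; DESeq2 adjusted p = 0.0325). Prpf39, a U1 snRNP protein, was separate between the groups (-0.24 ± 0.06). Srrm2, an abundant splicing protein, gave 0.01 ± 0.05, so the difference was not shared by the whole list.

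Ribosomal protein genes lay below 0 in 31 of 38 (median -0.08). Their summed level was 374726 in control 4 and 282635 to 314708 in the other controls, against 292688 to 304068 in Ins2 libraries. Without control 4 the median was -0.01. Interferon-stimulated genes lay below 0 in 29 of 35 (median -0.12, -0.16 to -0.07 with 1 library left out, the value nearest 0 being that without control 4, and -0.06 with the thalamic covariate). Ifit1, an antiviral protein, had 191, 182, 169, 141 and 169 in controls and 155, 126, 126, 114 and 134 in Ins2 libraries (-0.38 ± 0.15). Imprinted genes lay below 0 in 20 of 24 (median -0.05, and -0.02 with the thalamic covariate). Genes of endoplasmic reticulum stress lay below 0 in 17 of 24 (median -0.03, and -0.02 without Ins2 3), and Herpud1, which acts in the clearance of misfolded proteins, had 3303, 3255, 3138, 3182 and 3140.5 in controls and 2898, 3031, 2922, 2824 and 3118 in Ins2 libraries, with no overlap (-0.12 ± 0.05).

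Glucocorticoid responsive genes lay above 0 in 18 of 24 (median 0.08), with a median of 0.04 without Ins2 5 and 0.04 without control 2. Klf9, a transcription factor that glucocorticoids induce, had 3429.9, 3246, 3519.5, 3324 and 3895 in controls and 3642, 3699, 4149.5, 4033 and 4535 in Ins2 libraries (0.20 ± 0.06). Circadian clock genes lay above 0 in 14 of 20 (median 0.04), and Rora, an activator of the clock, was separate between the groups (0.16 ± 0.06). Immediate early genes, which mark recent neuronal activity, lay above 0 in 10 of 22 (median -0.04, and 0.06 without Ins2 1), and Fos gave -0.12 ± 0.13. None of these genes was called by limma.

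The fold changes were set beside those of choroid plexus from the same series, where limma called 2 of 14533 genes higher and 0 lower. The difference between the tissues passed the adjusted threshold for 15 of 13997 genes (0.107%), and the libraries of both tissues are not independent if each mouse gave both. For Map1a, a microtubule protein of neurons, the difference was 0.54 ± 0.08 (SE; hypothalamus 0.18, choroid plexus -0.36; adjusted p = 0.00174). For Jchain, the joining chain of antibodies, it was -3.91 ± 0.65 (SE; hypothalamus 0.18, choroid plexus 4.09; adjusted p = 0.0194), with the larger value in choroid plexus. For Megf9 it was 0.67 ± 0.13 (SE; hypothalamus 0.32, choroid plexus -0.35; adjusted p = 0.0225). Pcdhgc3 also differed, by 0.51 ± 0.11 (SE; hypothalamus 0.39, choroid plexus -0.11; adjusted p = 0.046). None of these genes was called by limma in hypothalamus. In choroid plexus Jchain was called (limma adjusted p = 0.0131), while Map1a (0.100), Megf9 (0.414) and Pcdhgc3 (0.823) were not.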

How the data were processed

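RNA was isolated with a PicoPure kit, selected for poly(A) and made into strand-marked libraries, per the labels' protocols. Reads were aligned with HISAT2, counted with featureCounts and scaled with DESeq2 on build GRCm38, as the submitters' processing notes list. No source used here gives tool versions or the strand used in counting. The deposited signal is each gene's count over a DESeq2 size factor that the authors estimated per library, per the labels, with the tissues scaled apart. Whole reads were recovered for 100% of values below 1000 reads, within 0.02. Of 25239 genes, 4487 were 0 in all hypothalamus libraries.

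The test was limma 3.58.1 (R 4.3.3) on log2(value + 1), with a trended prior variance, two-sided, for genes with a mean of at least 10, with Benjamini-Hochberg adjustment at 0.05; fold changes understate those of low genes. Errors of fold changes are standard errors. For single genes an exact two-sided permutation test ran over 252 assignments (smallest possible p = 0.00794). The tissues were compared by the difference of log2 fold changes with Welch-Satterthwaite degrees of freedom. edgeR 4.0.16 and DESeq2 1.42.0 on recovered reads were alternatives, as were other pseudocounts, filters, scalings, weights, covariates, a replicate block and leaving out each library. The filtered DESeq2 leaves genes without an adjusted p, and they stay out of its counts. Scripts were tested on simulated data.

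Members and lists were chosen with earlier results of these data known, so lists are described by counts and medians with no test. Genes to name were drawn from Ins2, Ins1, Ttr and 23 set genes, and from the 12 genes with the smallest p in each direction. In each list, 2 genes by smallest p and 2 by highest mean were drawn, and not all of these are named above. Genes outside this rule (Shox2, Bpifa1, Syt2, Map1a, Megf9) were chosen after their values were seen. Coordinates and strand overlaps are from GENCODE vM21. Mitochondrial genome transcripts were not analysed here.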

Additional observations from a re-analysis of the deposited data

Results flagged for a closer look

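Single libraries stood far from the rest of their group for 10 of the 218 group values examined, and chance alone flags about 1 in 20 groups. Igfbp2 was at 378 in control 3 against 165 to 214 in the other controls, and at 808 in Ins2 1 against 256 to 399 in the other Ins2 libraries. Slc6a3 was at 2244 in control 3 against 217 to 706. Srrm2 was at 18460 in control 4 against 21642 to 22583. Gal was at 1348 in Ins2 1 against 1116 to 1169. Jchain was at 107 in Ins2 5 against 54.8 to 68.9. Bpifa1 was at 252 in Ins2 5 and at 0 in the other Ins2 libraries. The normalised count of Ins2 was 5.75 in Ins2 4 and 0 in the other Ins2 libraries. The summed level of oligodendrocyte precursor genes was 34263 in Ins2 2 against 33099 to 33164, and that of choroid plexus epithelial genes was 17578 in Ins2 1 against 13992 to 14992.

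For 4 of the genes named, the log2 fold change differed between hypothalamus and choroid plexus in the test of that difference. Hypothalamus minus choroid plexus was 0.54 for Map1a, 0.67 for Megf9, 0.51 for Pcdhgc3 and -3.91 for Jchain.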

How the results depend on the processing

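The counts of 0 genes higher and 0 lower were the same with pseudocounts of 0.5 and 5, a mean of at least 50, no filter, equal totals, array weights, edgeR, and myelin, ependymal, meningeal or pituitary scores as covariates, after removal of a length trend, and without Ins2 1 and 5 or controls 1 and 4. DESeq2 gave 31 higher and 10 lower, 15 and 6 with its filter target at the default, and 3 and 2 without its filter; these last 2 settings were chosen after seeing the data, as were the meningeal, pituitary and length settings and the 2 that leave out a pair of libraries. The thalamic covariate gave 3 higher. Leaving out 1 library gave 0 to 16 higher and 0 to 2 lower: 16 and 2 without control 6, 1 and 0 without control 4 (Rn45s), and 0 otherwise. Of the 41 genes DESeq2 called, 41 kept their direction in limma with any 1 library left out, and 10 of the 18 called without control 6 were among them. The 41 were picked for their difference in these same libraries, so neither count is a check of the calls. The cause of the differences between settings was not tested. Over these alternatives 65 of the 81 named genes checked and 27 of 56 list medians kept their sign in each. The median of meningeal genes turned to -0.16 without Ins2 1 and Ins2 5. Low genes are limited by depth, since fold changes on the log2(value + 1) scale shrink there.

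The labels give both groups replicates 1 to 4 but do not say that a number pairs libraries. They also give codes that number some libraries otherwise: Ins2 4 is F5, Ins2 5 is F6 and control 6 is G5. Only the replicate numbers were used here, and a pairing by code was not tested. Same-numbered libraries did not deviate together over all genes (correlations -0.070, 0.0089, -0.013 and -0.042). This does not settle whether they were paired, since a pairing could touch few genes. With the replicate block, 47 of 16363 genes were called higher and 7 lower. Control 6 and Ins2 5 had no library of their number in the other group. The group difference in that fit therefore rested on replicates 1 to 4. Leaving out control 6 alone, with no block, gave 16 higher and 2 lower. The part of the pairing itself in the calls with the block was not tested. No control library correlated best with the Ins2 library of its own number.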
